A study of Mus musculus with 7 samples.

Results

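The Ms4a genes encode a family of small proteins that cross the cell membrane several times. Of the 55341 gene names counted in the series, the 8 Ms4a genes described here were chosen by name: Ms4a4a, Ms4a4b, Ms4a4c, Ms4a6b, Ms4a6c, Ms4a6d, Ms4a7 and Ms4a8a. RNA-seq was performed on microglia, the resident macrophages of the brain, sorted as CD11b+CD45low cells from female 5xFAD mice on a C57BL/6 background. All mice carried the 5xFAD transgenes, which include mutant human APP and are driven by the neuronal Thy1 promoter, and all had received cortical cells of WT embryos, which carry no such transgene, as a graft into the cortex. The comparison was between 3 libraries of microglia from inside the graft and 4 libraries from small pieces of cortex near it (outside graft), at 14 weeks of age and 4 weeks after injection. None of the libraries analysed here came from an ungrafted or a non-transgenic mouse, and the labels do not tie libraries to mice, so P values measure the spread between these libraries, which may be in part technical.

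MS4A proteins sit in the plasma membrane and in intracellular membranes, where several of them associate with immune receptors and shape their signalling. The best known relative is MS4A1, the B cell antigen CD20, and another is the beta chain of the IgE receptor, encoded by Ms4a2. In the brain the family is followed mainly because variants in the human MS4A gene cluster are linked to the risk of Alzheimer's disease and to the level of soluble TREM2, the shed part of a microglial lipid receptor.

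The 8 genes lie in one cluster on chromosome 19 of GRCm38, and the 19 Ms4a names annotated there span chr19:10962293-11640851, a stretch of 678.6 kb. Ms4a8a (chr19:11067471-11081102) and Ms4a7 (chr19:11321039-11336146) are on the minus strand. They are followed on the plus strand by Ms4a4a (chr19:11375523-11392790), Ms4a4c (chr19:11404770-11427246), Ms4a4b (chr19:11443553-11467055), Ms4a6c (chr19:11469366-11482192) and Ms4a6b (chr19:11516512-11531256), and Ms4a6d (chr19:11586604-11604849) closes the series on the minus strand. All 8 are protein-coding genes, and neighbours within the row are often close copies. The coding sequences of Ms4a4b and Ms4a4c, both 678 bases long, were 91.7% identical, those of Ms4a6b and Ms4a6c 86.4%, those of Ms4a6b and Ms4a6d 81.8% and those of Ms4a6c and Ms4a6d 79.6%. The most distant pair of the 8 shared 60.8% of aligned coding bases.

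The 2 closest pairs are also alike just ahead of their RefSeq starts. The 250 bases before the start are shown for these pairs, from RefSeq on GRCm38.p6, because one member of the first pair was counted in every library and the other only inside the graft (see the counts of Ms4a4b and Ms4a4c). Capitals mark the longest run of bases that the members of a pair share without a mismatch, 20 bases in the first pair and 48 in the second. All 4 are on the plus strand and are written 5′ to 3′, at chr19:11443308-11443557 for Ms4a4b, chr19:11407411-11407660 for Ms4a4c, chr19:11518309-11518558 for Ms4a6b and chr19:11469118-11469367 for Ms4a6c. The RefSeq starts of Ms4a4c and Ms4a6b lie inside the gene spans given above. Their windows therefore fall within these spans and not ahead of them.
Ms4a4b: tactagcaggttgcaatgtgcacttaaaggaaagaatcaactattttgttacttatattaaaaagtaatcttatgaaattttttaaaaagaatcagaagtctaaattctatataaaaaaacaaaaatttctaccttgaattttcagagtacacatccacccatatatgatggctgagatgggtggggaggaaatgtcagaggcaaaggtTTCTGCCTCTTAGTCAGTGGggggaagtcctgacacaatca
Ms4a4c: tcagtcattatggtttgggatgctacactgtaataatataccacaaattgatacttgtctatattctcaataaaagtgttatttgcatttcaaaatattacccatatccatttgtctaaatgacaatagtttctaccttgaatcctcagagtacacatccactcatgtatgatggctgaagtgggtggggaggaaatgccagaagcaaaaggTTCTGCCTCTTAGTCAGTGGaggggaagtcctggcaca
Ms4a6b: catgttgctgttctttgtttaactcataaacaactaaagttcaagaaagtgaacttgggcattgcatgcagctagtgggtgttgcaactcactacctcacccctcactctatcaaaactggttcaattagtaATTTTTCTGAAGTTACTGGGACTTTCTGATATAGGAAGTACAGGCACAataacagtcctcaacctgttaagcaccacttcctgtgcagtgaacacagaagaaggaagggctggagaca
Ms4a6c: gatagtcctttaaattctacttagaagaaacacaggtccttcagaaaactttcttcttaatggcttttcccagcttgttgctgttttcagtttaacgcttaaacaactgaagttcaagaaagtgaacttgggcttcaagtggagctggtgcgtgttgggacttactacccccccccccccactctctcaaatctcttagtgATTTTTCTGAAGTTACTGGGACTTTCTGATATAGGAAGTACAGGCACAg
Over the bases that could be aligned, identity was 80.1% between Ms4a4b and Ms4a4c and 85.1% between Ms4a6b and Ms4a6c. RefSeq gave 8 such windows for 7 of the 8 genes, with 2 starts for Ms4a7. The letters GAGGAA, the core recognised by the myeloid factor PU.1, searched on both strands, stood in the windows of Ms4a4b and Ms4a4c and in none of the other 6, against 23.3% of all 32851 windows of the same length. The core of the interferon-stimulated response element, GAAA repeated after any 2 bases, was in 0 of the 8 windows and in 2.98% of all windows. These are matches of letters and not measured binding.

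**Figure D1:**
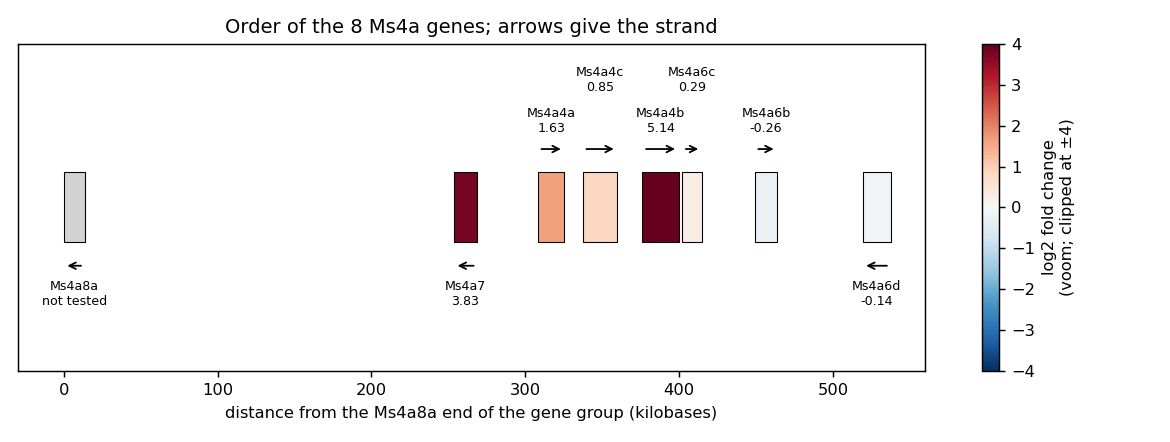
Boxes show the 8 Ms4a genes to scale along the chromosome, in kilobases from the Ms4a8a end, coloured by the log2 ratio of inside to outside graft (voomWithQualityWeights), with grey for the gene that was not tested; arrows give the strand. The largest positive values, 3.83 for Ms4a7 and 5.14 for Ms4a4b, belong to genes separated by Ms4a4a (1.63) and Ms4a4c (0.85), and the Ms4a6 genes stand between -0.26 and 0.29.

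The libraries held 18644807 to 25882122 counted reads, and 3 counts, taken as the floor of detection, correspond to 0.118 to 0.160 CPM, the count scaled to a common library size. PCR copies cannot be recognised in these reads, so such a floor covers counting error only. In bulk samples a smaller number of cells with a transcript and less transcript per cell cannot be told apart. A microglial list of 9 markers (P2ry12, Tmem119, Sall1 and others) summed to 26660 to 31200 CPM inside the graft and 32670 to 35600 CPM outside it. The cells of each library thus carried the markers of their label, with all 3 inside libraries below the outside ones. Markers of dendritic cells (17.9 to 30.2 CPM inside, 7.74 to 24.6 outside) and of neurons and macroglia (47.2 to 64.1 CPM inside, 55.8 to 64.9 outside) overlapped between the groups. Marker lists of neutrophils and monocytes were also higher in the inside libraries, and their values are given beside the genes below.

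Inside against outside the graft, the family divided into an abundant set whose groups overlapped (Ms4a6b, Ms4a6c, Ms4a6d), a scarce set with higher values inside the graft (Ms4a7, Ms4a4b) and a set with widely spread values in both groups (Ms4a4a, Ms4a4c). Of the 8 genes, 7 had enough counts to be tested. With limma's voomWithQualityWeights and with edgeR's quasi-likelihood test, 0 of these 7 had a Benjamini-Hochberg adjusted P below 0.01 or below 0.05. Among all 15257 genes tested, voomWithQualityWeights placed 0.0197% higher inside the graft at 0.01 and 0.433% at 0.05 (and 0.059% lower at 0.05), and edgeR placed 0% past 0.01 in either direction and 0.0983% higher at 0.05. At an unadjusted P below 0.05, Ms4a7 and Ms4a4b were higher inside the graft in each test, with a background of 7.47% of all genes for voomWithQualityWeights and 5.76% for edgeR. No member was lower inside at that level, against 4.71% and 3.79% of all genes. These were also the 2 genes in which the lowest inside library exceeded the highest outside library, as in 5.65% of all tested genes, and no member showed the opposite order, as 5.02% of all genes did. Both passed the filter on low counts only through the inside libraries, so their count is a description of the family and not evidence about it. The DESeq2 Wald test, run as an alternative, gave Ms4a7 an adjusted P of 0.000498 and Ms4a4b one of 0.0218. That test called 232 of the 15257 genes at 0.01, against 3 with voomWithQualityWeights and 0 with edgeR. The median log2 fold change was 0.85 over the 7 genes and -0.01 over all genes, and 5 of the 7 were positive, against 48.3% of all genes. These figures include Ms4a7 and Ms4a4b and are likewise no evidence about the family.

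**Figure D2:**
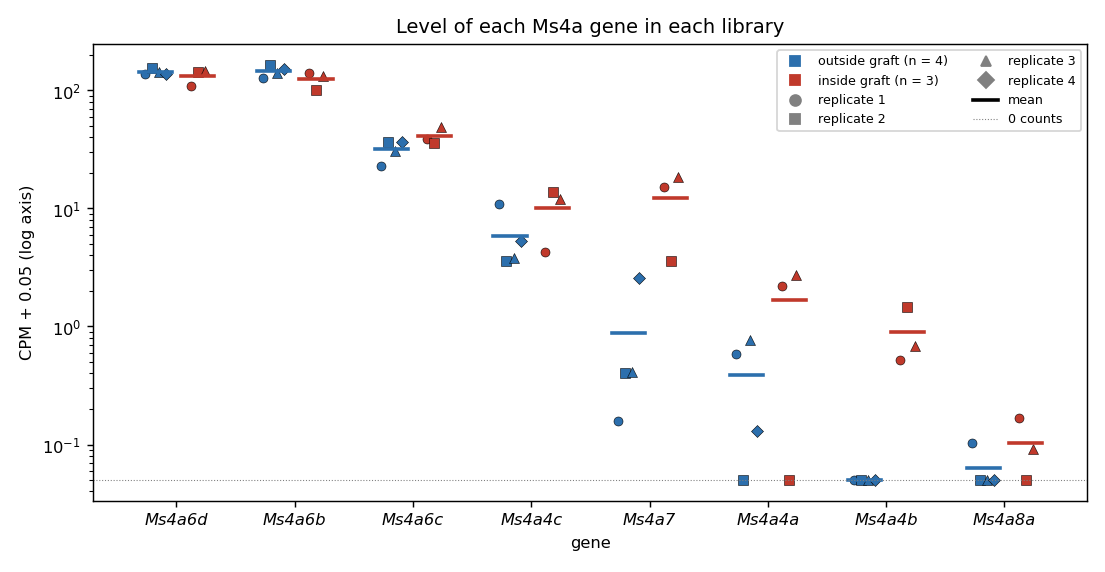
CPM of each Ms4a gene in each library on a log axis, after adding 0.05 so that 0 can be drawn (dotted line), with group means as bars, outside graft in blue (n = 4) and inside graft in red (n = 3). The 3 Ms4a6 genes overlap between the groups above 23 CPM, whereas Ms4a7 and Ms4a4b separate the groups at levels of 18.3 CPM and less.

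Ms4a7 encodes a family member used as a marker of border-associated macrophages and of brain macrophages that derive from the bone marrow, and resting microglia carry little of it. Inside the graft its counts were 387, 79 and 434, or 15.2, 3.51 and 18.3 CPM. Outside the graft they were 2, 8, 9 and 62, or 0.107, 0.356, 0.362 and 2.51 CPM. Inside graft 2 and outside graft 4 stood closest to each other, at 3.51 and 2.51 CPM, and the groups did not overlap. The mean was 12.3 ± 7.79 CPM (SD, n = 3) inside and 0.834 ± 1.12 CPM (SD, n = 4) outside. The log2 fold change was 3.83 ± 1.03 (SE, voomWithQualityWeights, 95% confidence interval 1.55 to 6.10, adjusted P = 0.134) and 3.86 ± 0.92 in edgeR (adjusted P = 0.131). The estimate rested on single libraries to a large degree. Without outside graft 4 it was 4.97 in voomWithQualityWeights (adjusted P = 0.391) and 5.43 in edgeR (adjusted P = 0.0885). It was 4.54 without inside graft 2, where the adjusted P was 0.0164 in voomWithQualityWeights and 0.124 in edgeR.

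The levels of Ms4a7 followed the libraries in which markers of blood-borne myeloid cells were high. Across inside grafts 1, 2 and 3 the 9 neutrophil markers (S100a8, S100a9, Ly6g and others) summed to 7514, 797 and 15310 CPM, and across outside grafts 1, 2, 3 and 4 to 0.640, 0.311, 367 and 18.3 CPM. The 12 monocyte markers (Ccr2, Ly6c2, Vcan and others) summed to 695, 92.8 and 1422 CPM inside and to 7.10, 15.1, 32.1 and 40.8 CPM outside. For both lists, as for Ms4a7, inside graft 2 was the lowest of the inside libraries and still above all outside libraries, and the monocyte list put all 7 libraries in the same order as Ms4a7 did. The neutrophil list did not, since its highest outside library was outside graft 3 and not outside graft 4. The list of 11 border-associated macrophage markers overlapped between the groups, at 412 to 660 CPM inside and 538 to 638 CPM outside. This sum was mostly Stab1, and without that gene, a choice made after the values were seen, it was 127, 33.2 and 141 CPM inside and 35.7, 10.8, 16.2 and 19.9 CPM outside. None of the 11 markers was at 0 in all libraries. Of the 9 that were tested, 8 had positive log2 fold changes, with a median of 2.24. At an adjusted P of 0.05, 1 was higher inside in voomWithQualityWeights (0.433% of all genes) and 0 in edgeR (0.0983%). The monocyte and neutrophil lists had medians of 2.78 and 7.33, with 0 genes past 0.05 in either test. The study's methods name antibodies against Ly6C and Ly6G, surface markers of monocytes and neutrophils, among the lineage markers added to the sorting panel. The part of these cell types in the level of Ms4a7 was not tested.

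Ms4a4b encodes a protein first described in T cells, where it acts on proliferation. It was counted 12, 32 and 15 times in inside grafts 1, 2 and 3, or 0.471, 1.42 and 0.632 CPM, and 0 times in each of the 4 outside libraries. The inside libraries held 59 counts in all, and against 3 counts over the pooled outside group the level was at least 24.9-fold higher inside. The fitted log2 fold change was 5.14 ± 1.07 (SE, voomWithQualityWeights, adjusted P = 0.061) and 7.30 ± 1.41 in edgeR (adjusted P = 0.119), values that depend on the small count added by each method and are no bound. Inside graft 2, the library with the least Ms4a7 among the inside libraries, had the most Ms4a4b. Despite the close copies, only 1.18% of the 75-base stretches (the read length) of the annotated Ms4a4b transcripts occur in another gene, and 3.78% of those of Ms4a4c.

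Markers of T and NK cells were scarce in the same libraries, and the sorting panel included an antibody against the T cell antigen CD3. The list of 16 summed to 24.1 to 41.6 CPM inside the graft and 37.9 to 52.9 CPM outside it, mostly from Il7r. Without Il7r, left out after its values were seen, the sum was 4.79, 5.19 and 13.6 CPM inside and 0.427, 0.667, 1.33 and 0.567 CPM outside. As for Ms4a4b, every inside value of this sum lay above the outside values, but its highest library was inside graft 3 and that of Ms4a4b inside graft 2. Of the 16 markers, Cd3d, Gzma, Ncr1 and Trbc2 were at 0 in all 7 libraries, and their relation to Ms4a4b was not tested.

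Ms4a4a, the mouse counterpart of human MS4A4A, encodes a macrophage protein that associates with the glucan receptor dectin-1. Its counts were 55, 0 and 64 inside the graft and 10, 0, 18 and 2 outside it, or 2.16, 0 and 2.7 CPM and 0.534, 0, 0.724 and 0.081 CPM. Both groups thus contained a library with no read of this gene, and the other 2 inside libraries lay above all outside ones. The log2 fold change was 1.63 ± 1.85 (SE, voomWithQualityWeights, adjusted P = 0.804) and 2.26 ± 1.42 in edgeR (adjusted P = 0.697), with a 95% confidence interval in the first test of -2.44 to 5.69. It was 3.77 without inside graft 2 (adjusted P = 0.139), 0.50 when inside graft 1 was left out and 0.43 when inside graft 3 was. The 2 libraries with the highest values were those with the most neutrophil and monocyte markers, but the others did not follow these lists. Inside graft 2, with 92.8 CPM of monocyte markers, had 0 counts of Ms4a4a, and outside graft 1, with 7.10 CPM of them, had 10. The part of these cells in its level was not tested.

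Ms4a4c is a haematopoietic member whose transcript is often listed among interferon-responsive genes. Its level was 4.20, 13.9 and 12.1 CPM inside the graft and 10.9, 3.56, 3.74 and 5.22 CPM outside it. Inside graft 1 lay among the low libraries and outside graft 1 among the high ones, and the groups overlapped. The log2 fold change was 0.85 ± 0.45 (SE, voomWithQualityWeights, adjusted P = 0.505) and 0.78 ± 0.51 in edgeR (adjusted P = 0.708). Without inside graft 1 it was 1.5 (adjusted P = 0.106). Inside the graft the order of the libraries was the same as for Ms4a4b, its closest copy in the family. Outside the graft Ms4a4c was counted in every library, whereas Ms4a4b was at 0 in each.

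The 3 Ms4a6 genes were the abundant members in microglia. Ms4a6b, which is also known from T cells, stood at 139, 101 and 132 CPM inside the graft and 128, 165, 141 and 154 CPM outside it. Its mean was 124 ± 20.2 CPM inside and 147 ± 16.0 CPM outside, a log2 fold change of -0.26 ± 0.13 (SE, voomWithQualityWeights, 95% confidence interval -0.55 to 0.03, adjusted P = 0.471). The lowest value was that of inside graft 2, and the groups overlapped.

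Ms4a6d, known in macrophages as a partner of VSIG4 in the control of inflammasome genes, stood at 108, 144 and 146 CPM inside the graft and 138, 154, 144 and 137 CPM outside it. Inside graft 1 was the lowest library, and the other 2 inside libraries lay within the outside range. The log2 fold change was -0.14 ± 0.13 (SE, voomWithQualityWeights, 95% confidence interval -0.42 to 0.13, adjusted P = 0.731), and without inside graft 1 it was 0.025. Vsig4 itself was at 0 in all 7 libraries.

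Ms4a6c, a member expressed in monocytes and macrophages, stood at 38.4, 36.0 and 49.3 CPM inside the graft and 23.1, 36.7, 30.5 and 36.3 CPM outside it. Inside graft 3 was the highest library and outside graft 1 the lowest, with the others close together. The log2 fold change was 0.29 ± 0.18 (SE, voomWithQualityWeights, 95% confidence interval -0.09 to 0.68, adjusted P = 0.568). Ms4a6c is the 1 abundant member whose exons overlap a sizeable antisense gene, BE692007, and 47.72% of its 75-base stretches are shared with that gene, mostly by this overlap. BE692007 received 124 to 301 counts inside the graft and 103 to 254 outside it, and reads of the 2 genes cannot be told apart there because strand was not used in counting. With the counts of BE692007 added to Ms4a6c, the log2 fold change was 0.23. Counting with standard settings, as the study's methods state, leaves out reads that fall in exons of both genes. The sum does not recover those reads and is therefore no check on the overlap.

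Ms4a8a, a member known from alternatively activated macrophages and from epithelia, received 3, 0 and 1 counts inside the graft and 1, 0, 0 and 0 outside it. All libraries were at or below the floor of 3 counts, so the gene was not tested and no fold is given.

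**Figure D3:**
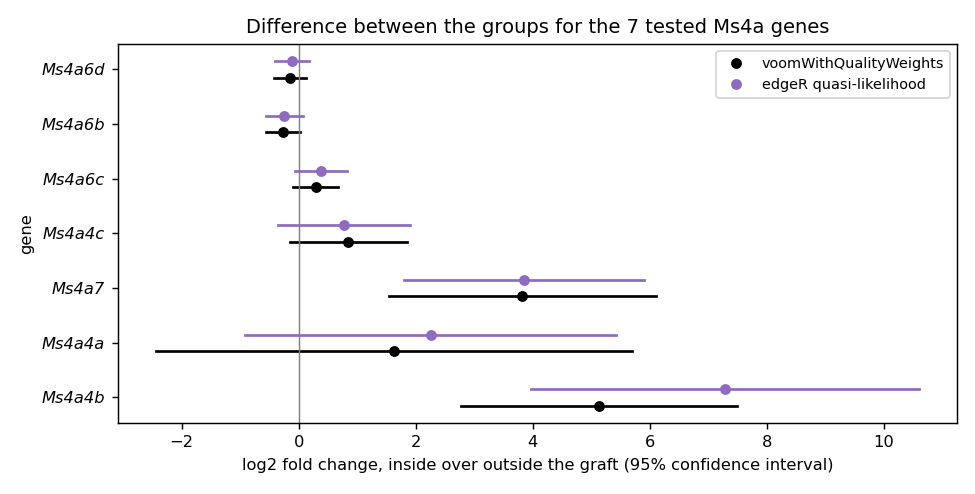
Points are log2 ratios of inside to outside graft and lines their 95% confidence intervals, in black for voomWithQualityWeights and in purple for edgeR, for the 7 tested Ms4a genes. The intervals of Ms4a7 and Ms4a4b lie above 0 before adjustment for the number of genes, that of Ms4a4a in voomWithQualityWeights runs from -2.44 to 5.69, and those of the Ms4a6 genes include 0.

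For comparison of genes with each other, counts were divided by the exon length given with them (RPKM). On this scale the order outside the graft was Ms4a6d (82.6 ± 4.50 RPKM, SD, n = 4), Ms4a6b (32.8 ± 3.57), Ms4a6c (15.4 ± 3.12) and Ms4a4c (3.34 ± 1.96), with no overlap of ranges between neighbours. Below these, Ms4a4a (0.400 ± 0.419), Ms4a7 (0.187 ± 0.253) and Ms4a8a each overlapped in range with the next in this order, and Ms4a4b, last, was at 0 in all 4 libraries, below Ms4a7 in each. Inside the graft the order began in the same way with Ms4a6d (76.6 ± 12.3 RPKM, SD, n = 3), Ms4a6b (27.7 ± 4.50), Ms4a6c (20.1 ± 3.47) and Ms4a4c (5.74 ± 2.93), where the ranges of Ms4a6b and Ms4a6c overlapped. Ms4a7 (2.77 ± 1.75) and Ms4a4a (1.94 ± 1.71) followed, with ranges that overlapped each other and that of Ms4a4c. The distance between Ms4a6b and Ms4a6d rests on the lengths of 4485 and 1735 bases in the annotation, since in CPM Ms4a6b ranked above Ms4a6d outside the graft. The length given for Ms4a4b, 8780 bases, covers 7 transcripts of which 1 codes for protein, which lowers its RPKM. That of Ms4a6c, 2050 bases, includes the bases shared with BE692007, where reads are counted for neither gene. This lowers the RPKM of Ms4a6c and affects its distance from Ms4a6b.

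Summed over the 8 genes, the family made up 323 ± 33.3 CPM (SD, n = 3) inside the graft and 329 ± 24.8 CPM (SD, n = 4) outside it, with ranges of 300.2 to 361 and 301 to 360.0 CPM. The total thus differed by less than the spread between libraries, whereas its make-up differed between libraries. Ms4a7 accounted for 4.93%, 1.17% and 5.06% of the family's counts in the inside libraries and for 0.0355%, 0.0988%, 0.113% and 0.751% in the outside ones. Ms4a6c accounted for 12% to 13.6% inside and 7.66% to 10.8% outside. Ms4a6b and Ms4a6d together remained the bulk of the counts, and inside graft 2 was the library in which Ms4a6d (48.0%) most exceeded Ms4a6b (33.7%).

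**Figure D4:**
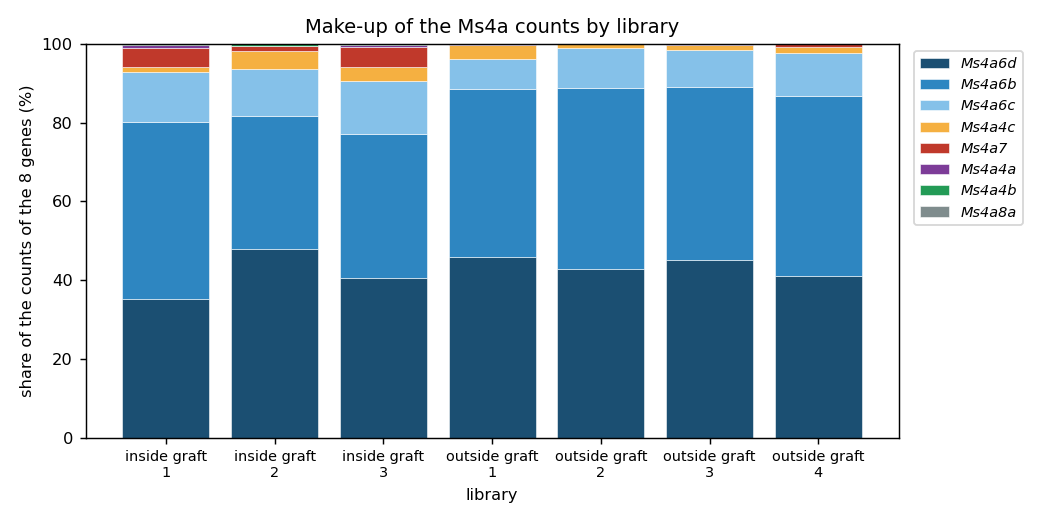
Stacked bars give the share of the counts of the 8 Ms4a genes that each gene took in each library, in percent. Ms4a6b and Ms4a6d fill most of every bar, and the red share of Ms4a7 is visible in inside grafts 1 and 3 (4.93% and 5.06%).

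The genes whose levels over the 7 libraries were most like those of a member were listed as a description, from Pearson's r of log2(CPM + 0.5) over 13143 genes with a mean of at least 1 CPM. The libraries are shared by all genes and fall into the groups compared, so r also reflects the difference between the groups. For Ms4a7 these were Kif11 (r = 0.975), a motor of the mitotic spindle, Myh9 (0.974), a non-muscle myosin, and Coa5 (0.973). Kif11 was at 3.85, 1.47 and 7.58 CPM inside the graft and at 0 to 0.405 CPM outside it. For Ms4a4b they were Arid5b (0.983), Gpnmb (0.982), a lysosomal glycoprotein of activated microglia, and Apoe (0.974), the apolipoprotein of plaque-associated microglia. Like Ms4a4b, Gpnmb and Apoe were highest in inside graft 2, at 13.6 and 8306 CPM. For Ms4a4c they were Tap2 (0.978), the peptide transporter of antigen presentation, Cxcl13 (0.972), a B cell chemokine, and Cd22 (0.969), an inhibitory sialic acid receptor. Cxcl13 was at 14.1 CPM in outside graft 1 and at 0.51 CPM in inside graft 1, the same exchange of places as in Ms4a4c. For Ms4a4a the first was 6430511E19Rik (0.990), for Ms4a6c the lipoprotein receptor gene Olr1 (0.997), for Ms4a6b Mettl14 (0.973) and for Ms4a6d Serac1 (0.990).

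Beyond the 8 genes, 13 of 16 listed relatives (other Ms4a genes and the related Tmem176a and Tmem176b) were in the counts. Ms4a3, a marker of granulocyte and monocyte progenitors, was counted 340, 1 and 565 times inside the graft and 0 times in the 4 outside libraries. It had too few libraries with counts to pass the filter, and over the pooled group its level was at least 382-fold higher inside than 3 counts outside. Inside graft 2 held almost none of it, as for Ms4a4a. Ms4a2, the IgE receptor chain of mast cells and basophils, was counted 4, 0 and 11 times inside and 0 times outside, and the 7 mast cell and basophil markers summed to 15, 0.222 and 19.5 CPM inside and 0 to 1.37 CPM outside, so that the groups overlapped, with Cpa3, Mcpt8 and Fcer1a at 0 in all libraries. Ms4a1, the gene of CD20, was at 0 in all libraries, as were the B cell marker Blk and a further 5 Ms4a genes. The list of 8 B cell markers to which Blk belongs was not at 0. It summed to 552 to 611 CPM inside the graft and 605 to 672 CPM outside it, and the groups overlapped. The 2 relatives that could be tested were close to no difference, with log2 fold changes of 0.10 ± 0.11 for Tmem176a (adjusted P = 0.815) and 0.05 ± 0.09 for Tmem176b (adjusted P = 0.886, both SE and voomWithQualityWeights).

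**Figure D5:**
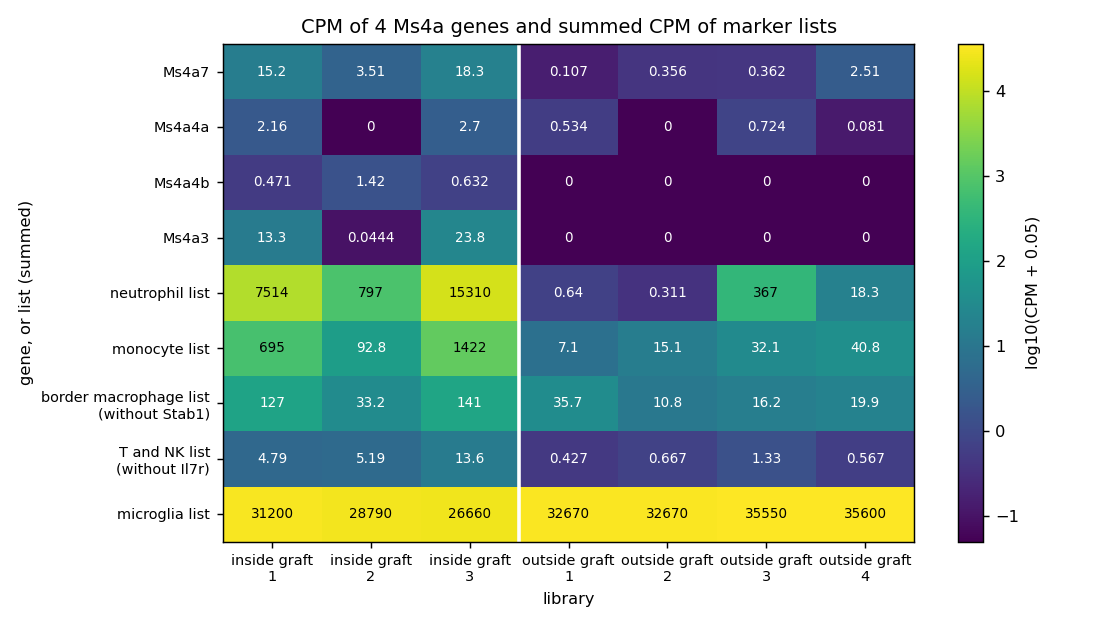
Each cell gives the CPM of a gene, or the summed CPM of a marker list, in a library, coloured by log10(CPM + 0.05); the vertical line separates the 3 inside libraries from the 4 outside ones. Ms4a7, Ms4a4a, Ms4a3 and the neutrophil and monocyte lists are highest in inside grafts 1 and 3, whereas Ms4a4b is highest in inside graft 2 (1.42 CPM).

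Genes of the pathways in which MS4A proteins are placed were read in the same fits. Of 16 receptors, adaptors and sheddases listed as working beside the family (Trem2, Tyrobp, Clec7a, Adam10 and others), 15 had enough counts. Whether the listed genes work with MS4A proteins was not tested. At 0.05, voomWithQualityWeights called 1 of the 15 higher inside the graft (0.433% of all genes) and edgeR 0 (0.0983%). The gene was Clec7a, which encodes dectin-1, at 255, 399 and 154 CPM inside and 52.4, 102, 34.0 and 58.5 CPM outside. Its log2 fold change was 2.27 ± 0.35 (SE, voomWithQualityWeights, adjusted P = 0.0335; edgeR, adjusted P = 0.0682). Next in this list by P came Fcgr4, an IgG receptor, with 1.07 ± 0.29 (adjusted P = 0.142), and Tyrobp, the signalling adaptor of TREM2, with 0.69 ± 0.22 (adjusted P = 0.204). Over the 15 genes the median log2 fold change was 0.22. Wholly above the outside libraries lay 4 of them (5.65% of all genes). An unadjusted P below 0.05 was found for 5 in each test. Of all genes, 7.47% were higher and 4.71% lower at that level in voomWithQualityWeights, and 5.76% and 3.79% in edgeR.

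Of 18 genes of plaque-associated microglia, 18 were tested, 6 were higher inside the graft at 0.05 in voomWithQualityWeights and 5 in edgeR (0.433% and 0.0983% of all genes), none was lower, and the median log2 fold change was 1.97. The 3 with the smallest P were Apoe (2.47 ± 0.30, adjusted P = 0.0136), Axl, a receptor for dying cells (2.48 ± 0.33, adjusted P = 0.0172), and Lgals3, galectin-3 (2.28 ± 0.31, adjusted P = 0.0195; SE, voomWithQualityWeights). Of 15 genes of the type I interferon response, all 15 were tested and had positive log2 fold changes, with a median of 0.99, and 9 lay wholly above the outside libraries (5.65% of all genes), but 0 passed an adjusted P of 0.05 with voomWithQualityWeights or edgeR, where 12 had an unadjusted P below 0.05 in each (7.47% and 5.76% of all genes were higher at that level). Its leading genes were Oasl2 (1.33 ± 0.28, adjusted P = 0.065), Irf7 (1.28 ± 0.30, adjusted P = 0.0838) and Ifit2 (1.15 ± 0.27, adjusted P = 0.093). These 3 genes were picked by smallest P and are no fair comparison for Ms4a4c. Its value, 0.85 ± 0.45 (SE, voomWithQualityWeights), lay within 1 SE of the list's median of 0.99.

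The genes around the family were read in the same way. Within 500 kb of the Ms4a genes 72 other genes were annotated, 25 were tested, and 0 passed an adjusted P of 0.05 in either test, while 3 (voomWithQualityWeights) and 1 (edgeR) had an unadjusted P below 0.05, in voomWithQualityWeights against 7.47% of all genes higher and 4.71% lower. Their median log2 fold change was 0.24. The 3 with the smallest P were the non-coding gene A430093F15Rik (3.92 ± 1.07, adjusted P = 0.140), Osbp, an oxysterol-binding protein (-0.46 ± 0.15, adjusted P = 0.209), and AW112010 (0.65 ± 0.26, adjusted P = 0.326), all SE and voomWithQualityWeights. A430093F15Rik had low counts, 69, 52 and 56 inside the graft and 18, 24, 0 and 8 outside it. Its log2 fold change in edgeR was 2.065 ± 0.99 (SE, adjusted P = 0.560).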

How the data were processed

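The authors aligned single reads with STAR 2.7.2a to GRCm38 and deposited, for each gene name, raw counts made by featureCounts 1.6.2 with the GENCODE M21 annotation. Strand was ignored and reads aligned to several places were left out, which affects overlapping and near-identical genes. CPM, RPKM (with the deposited exon length) and tests were obtained in R 4.3.3 (limma 3.58.1, edgeR 4.0.16, DESeq2 1.42.0). Genes were filtered with filterByExpr (minimum count 10 in a smallest group of 3), which left 15257, and normalized with TMM, which also sets the library sizes behind CPM and RPKM. The groups, taken from the labels, were compared with voomWithQualityWeights, the test of the study's methods, and with edgeR's quasi-likelihood test (legacy=TRUE), with Benjamini-Hochberg adjustment over all tested genes and an adjusted P of 0.01. The depth was 18644807 to 25882122 counts per library. Library weights ran from 0.448 (outside graft 1) to 1.76 (outside graft 4). The chi-square per degree of freedom between libraries of one group was at least 17.8 in the 9 pairs, so none repeated another. Scripts were tested on simulated data.

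The members and the lists were chosen with earlier results of these data known. Named genes were the 8 members, the 3 genes with the smallest P of each pathway list, the 3 genes most like each tested member, and the relatives of the family. Marker lists were summed per library; 1 microglial marker was left out of its sum and 1 B cell marker is not reported here. Stretches of 75 bases, the read length, were compared between annotated transcripts. Protein sequences were not used here, and Ms4a6d had no promoter entry. Alternatives were other normalizations, filters, thresholds and tests, the replicate number as a block and each library left out. The addition of BE692007 to Ms4a6c and the marker sums without Stab1 or Il7r were chosen after seeing the data.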

Additional observations from a re-analysis of the deposited data

Results flagged for a closer look

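Ms4a7 in outside graft 4 stood at 2.51 CPM, far above the other 3 outside libraries, which lay between 0.107 and 0.362 CPM. Ms4a8a in outside graft 1 stood at 0.0534 CPM, or 1 count, where the other outside libraries had 0, a difference within counting error. Chance sets apart a library in about 1 in 20 groups of 4. These were 2 of 8 sets of values, made up of the genes with any count outside the graft and the family's summed level. A gene with reads in only 1 library is always set apart, so that share does not apply to Ms4a8a.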

How the results depend on the processing

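No alternative turned the direction of any tested member, except that Ms4a6d without inside graft 1 gave a log2 fold change of 0.025 in voomWithQualityWeights and 0.021 in edgeR, in ranges of -0.20 to 0.025 and -0.19 to 0.021 over the libraries left out. At an adjusted P below 0.01, voomWithQualityWeights called 3 of 15257 genes, and it called 75 at 0.05, 1 with library size alone and 1 without quality weights. It called 41 of 29525 genes without a filter and 48 of 12066 when each library had to hold 10 counts. With each library left out it called 0 to 33. Without a filter, Ms4a4b was the 1 member called (adjusted P = 0.00318, range over its alternatives 0.00318 to 0.290). EdgeR called 0 genes (879 higher and 578 lower inside at an unadjusted P below 0.05), and 15 at 0.05, 40 with legacy=FALSE and 0 to 1 with each library left out. It called 190 of 29525 genes without a filter and 20 of 12066 with that stricter filter. The DESeq2 Wald test, used in its place, called 232 of 15257. Ms4a7 was the 1 member called without a filter (adjusted P = 0.00328) and by DESeq2 (adjusted P = 0.000498), with a range over its alternatives of 0.000498 to 0.364. The filter of 10 counts in every library left 4 members. The cause of these changes was not tested. With a block for the replicate number, fitted on 3 libraries a group, voomWithQualityWeights called 77 genes and edgeR 5, with 0 members called. On the same libraries without the block each called 0 genes. With the block Ms4a7 had a log2 fold change of 4.96 in voomWithQualityWeights (adjusted P = 0.0271) and 5.22 in edgeR (adjusted P = 0.0741). Same-numbered libraries correlated at -0.043, 0.090 and 0.067 in their deviations from the group means, which did not meet the limit of 0.1 set for pairing. The labels do not say whether same-numbered libraries share a mouse. Inside graft 1 correlated most with outside graft 4 (0.064), and inside grafts 2 and 3 most with the outside libraries of their own number. These correlations do not settle whether the libraries are paired. Depth limits Ms4a8a, which stood at or below the floor of 3 counts, and the size of the fold of Ms4a4b, which had 0 counts outside the graft.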
